A study of Mus musculus with 9 samples.

Results

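The colony-stimulating factor system was followed through its 9 mouse genes, which comprise the 4 ligand genes Csf1, Csf2, Csf3 and Il34 and the 5 receptor genes Csf1r, Csf2ra, Csf2rb, Csf2rb2 and Csf3r. They were found by gene symbol in a table of 21936 genes from Lewis lung carcinoma (LLC) cells, a mouse lung tumour cell line, and by the same gene IDs in a table of 22060 genes from bone-marrow-derived macrophages (BMDM). All 9 were listed in both tables.

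M-CSF (Csf1) and IL-34 (Il34) are ligands of the receptor tyrosine kinase encoded by Csf1r, which macrophages need for survival and growth. GM-CSF (Csf2) is bound by an alpha chain (Csf2ra) that pairs with the common beta chain (Csf2rb), and this pair signals through JAK2 and STAT5. Csf2rb2 encodes the mouse beta chain that serves IL-3 alone, and Csf3r encodes the G-CSF (Csf3) receptor, best known from neutrophils. Tumour cells that release M-CSF or GM-CSF can recruit and sustain macrophages, which is general background and not a result of these libraries.

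All cells were of strain C57BL. There was 1 library per group. The macrophages came in both kinds that the labels call GM-BMDM and M-BMDM, without spelling out the prefixes. Each kind was sequenced untreated and after 4 h of tunicamycin, which blocks N-linked glycosylation and causes protein folding stress in the endoplasmic reticulum. For the tumour libraries, macrophages of either kind were left without tunicamycin or given it for 12 h, washed, and then held in fresh serum-containing medium for 16 h. LLC cells were cultured for 24 h in that medium, which is called unstressed or stressed after the macrophages it came from, and untreated LLC cells made up the fifth group. How many animals gave bone marrow and how the macrophages were grown are not given in the sources used here.

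Total counts were 15020068 to 17128471 reads per LLC library and 37695079 to 42751176 per BMDM library. The macrophage markers were all at 1 CPM (read counts scaled to library size within each table) or more in every BMDM library, 10 of 10. In LLC cells Ptprc, Adgre1, Itgam and Tyrobp had 0 reads in all 5 libraries, while 2 or 3 of the 10 markers reached 1 CPM in each, with a summed level of 13.2 to 24.8 CPM. Of 7 epithelial and lung markers, 2 reached 1 CPM in each LLC library, with a summed level of 363 to 526 CPM. Nkx2-1 and Krt19 were at 0 in all 5. Of 8 fibroblast markers, 4 to 6 reached 1 CPM, with a summed level of 1054 to 1827 CPM. In BMDM the neutrophil markers summed to 1690 and 1616 CPM in untreated and tunicamycin-treated GM-BMDM and to 62.7 and 41.4 CPM in M-BMDM. Those of mast cells, basophils and eosinophils summed to 145 and 113 CPM in GM-BMDM and to 1.85 and 1.78 CPM in M-BMDM, and those of dendritic cells to 51.6 and 25.2 CPM against 1.40 and 1.42 CPM. These lists moved with the kind of macrophage, and their part in the differences by kind below was not tested.

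Some sequences bear on how the receptor values can be read. The genes of both beta chains lie side by side on mouse chromosome 15 (GRCm38), Csf2rb at 78325752 to 78353847 on the plus strand and Csf2rb2 at 78282507 to 78305721 on the minus strand. Their coding sequences were 95.2% identical, 2503 of 2628 aligned bases, and 26.0% of all windows of 50 bases in Csf2rb also occurred in Csf2rb2. The longest stretch without a difference ran for 242 bases, from coding base 2083 to 2324 of Csf2rb. It is shown because a read from it cannot be placed in either gene. The most different stretch of 60 bases held 13 differences, which are in capitals, and a read from it can be told apart.
Csf2rb and Csf2rb2, identical stretch: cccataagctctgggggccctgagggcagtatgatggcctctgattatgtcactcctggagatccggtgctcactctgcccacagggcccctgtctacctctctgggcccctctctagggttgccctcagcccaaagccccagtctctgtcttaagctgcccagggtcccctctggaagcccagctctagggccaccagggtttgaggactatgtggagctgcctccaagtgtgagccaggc
Csf2rb, most different stretch: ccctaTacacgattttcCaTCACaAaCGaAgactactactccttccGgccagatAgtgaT
Csf2rb2, most different stretch: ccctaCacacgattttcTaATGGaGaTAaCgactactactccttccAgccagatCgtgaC
How the deposited counts treated reads that match both genes is not given in the sources used here, so the split between Csf2rb and Csf2rb2 is uncertain.

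RefSeq's promoter table (GRCm38.p6) held 5 of the 9 members. For 4 of them, which differed between the kinds of macrophage, the 250 bases before the start are shown 5′ to 3′ on the gene's strand. Windows of 250 bases before to 50 after the start were searched on both strands for GAGGAA (reverse TTCCTC), a core letter pattern of the myeloid factor PU.1. They were also searched for GCAAT (reverse ATTGC), a C/EBP half-site, for an NF-kB-like pattern (GGGA and CC with any 4 bases between them), and for TGATGNAA, an ATF4-C/EBP composite. Matches are in capitals.
Csf1, chr3:107760470-107760719, minus strand: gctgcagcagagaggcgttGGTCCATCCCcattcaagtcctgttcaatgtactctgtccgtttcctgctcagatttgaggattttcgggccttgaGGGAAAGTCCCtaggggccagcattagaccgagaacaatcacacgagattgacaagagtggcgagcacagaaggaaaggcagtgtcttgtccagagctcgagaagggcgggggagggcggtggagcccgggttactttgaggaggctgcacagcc
Csf2ra, chr19:61228419-61228668, minus strand: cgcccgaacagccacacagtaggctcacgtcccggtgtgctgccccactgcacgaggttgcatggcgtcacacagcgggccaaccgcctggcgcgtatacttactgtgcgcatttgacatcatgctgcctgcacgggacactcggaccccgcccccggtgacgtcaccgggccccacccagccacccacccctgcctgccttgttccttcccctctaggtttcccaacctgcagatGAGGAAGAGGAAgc
Csf2rb2, chr15:78305722-78305971, minus strand: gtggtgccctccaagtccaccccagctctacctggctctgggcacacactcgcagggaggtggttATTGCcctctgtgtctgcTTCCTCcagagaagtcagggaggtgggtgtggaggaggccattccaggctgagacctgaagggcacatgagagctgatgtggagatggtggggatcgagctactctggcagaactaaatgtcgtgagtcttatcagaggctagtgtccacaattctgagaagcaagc
Csf3r, chr4:126024409-126024658, plus strand: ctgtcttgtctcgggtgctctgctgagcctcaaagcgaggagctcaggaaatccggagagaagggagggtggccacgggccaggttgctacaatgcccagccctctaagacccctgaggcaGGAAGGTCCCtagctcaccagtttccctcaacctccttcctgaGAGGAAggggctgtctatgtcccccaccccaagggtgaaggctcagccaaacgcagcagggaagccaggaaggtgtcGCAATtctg
GAGGAA stood as a tandem pair in Csf2ra, at positions -14 to -9 and -8 to -3 from the start, and also in Csf2rb2 and Csf3r. Csf2rb2 had a second match after its start, at 29 to 34. In Csf1 the NF-kB-like pattern matched 3 times, among them GGGAAAGTCC at -155 to -146, which overlaps a match on the other strand. The composite matched in none of the windows. Such matches are common. Of 27025 promoter windows of this length, 28.3% held GAGGAA, 26.5% GCAAT, 20.5% the NF-kB-like pattern and 4.06% the composite.

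Across the study, ligand RNA lay on the tumour side and receptor RNA on the macrophage side. To compare genes of different length, counts were divided by gene length and scaled to the same sum within each table (TPM), and since the tables were normalized separately a level in LLC cells is not a fold of a level in macrophages. In LLC cells the ligands summed to 165, 183, 128, 203 and 185 TPM in the untreated, unstressed GM, unstressed M, stressed GM and stressed M groups. The 5 receptor genes together summed to 0.13 to 0.396 TPM there, from 3 to 9 reads per library. In macrophages the receptors summed to 1732 and 1812 TPM in untreated and tunicamycin-treated GM-BMDM and to 4212 and 4227 TPM in M-BMDM. The ligands summed to 25.2 and 31.1 TPM in GM-BMDM and to 3.10 and 8.59 TPM in M-BMDM.

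**Figure D1:**
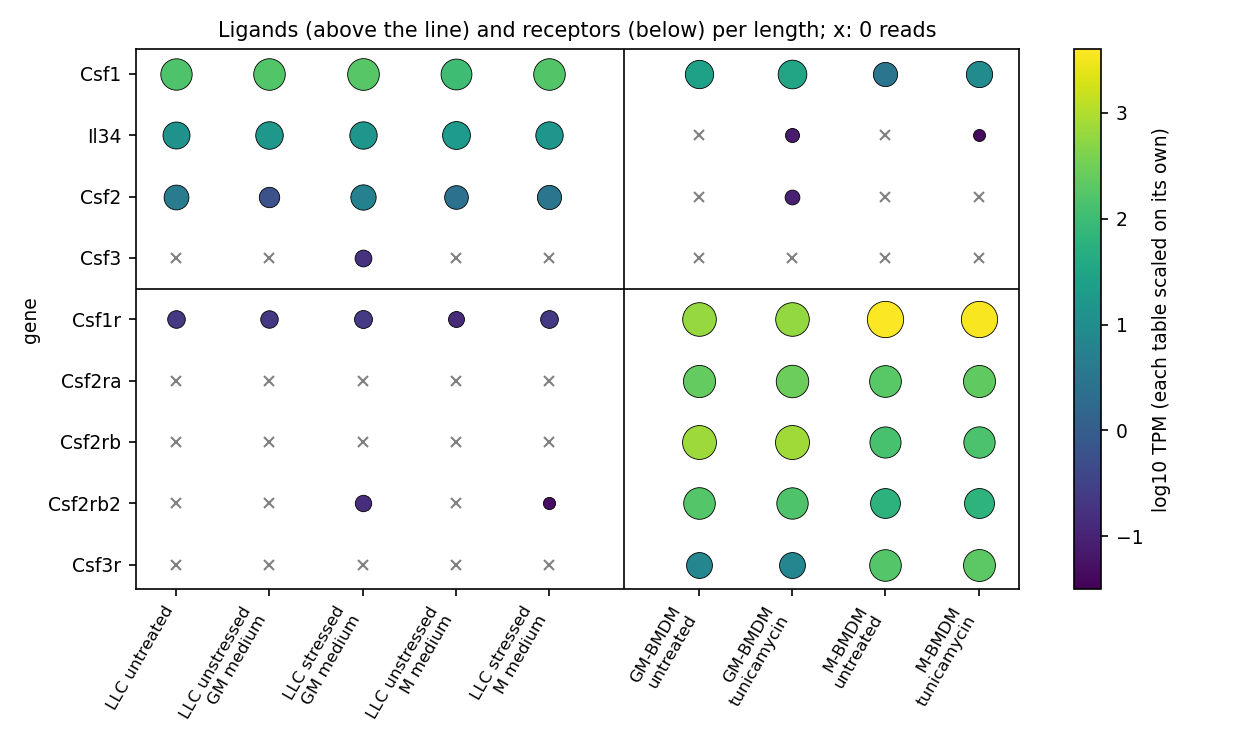
RNA level of the 4 ligand genes (above the horizontal line) and 5 receptor genes (below) in each of the 9 libraries, with colour and dot size giving log10 TPM within each table and crosses marking 0 reads. Csf1 is the strongest ligand in every LLC library, and receptor dots are bright only in the 4 macrophage libraries.

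Among ligands, Csf1 (chromosome 3, 107741048 to 107760469, minus strand) made up 82.9% to 90.6% of the summed ligand TPM in the 5 LLC libraries. It stood at 149, 166, 106, 182 and 166 TPM in the order above, which placed it among the top 6.52% to 13.1% of genes with a read. Il34 followed at 12.5, 16.6, 19.4, 15.4 and 15.4 TPM. Csf2 was at 4.15, 0.615, 2.50, 5.33 and 3.07 TPM, from 13, 2, 8, 18 and 11 reads. Csf3 (chromosome 11, 98701263 to 98703629, plus strand) had 1 read in the stressed GM library and 0 in the other 4, which allows up to 0.198 CPM in the untreated library. The order Csf1, Il34, Csf2, Csf3 was the same in all 5 LLC libraries.

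LLC cells carried little receptor RNA. Csf2ra, Csf2rb and Csf3r had 0 reads in all 5 LLC libraries, and with 3 reads as the limit that a count of 0 allows, each stayed below 0.198 CPM in the untreated library. Csf2rb2 had 0 reads in 3 libraries, 3 in the stressed GM library and 1 in the stressed M library. Csf1r had 5, 5, 3, 6 and 6 reads. Csf1r (chromosome 18, 61100598 to 61132149, plus strand) overlaps Hmgxb3 on the other strand, which had 803 to 1176 reads in these libraries. The strand setting of the counts is not given in the sources used here, so the few Csf1r reads cannot be told apart from reads of Hmgxb3.

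In macrophages every receptor gene was expressed, and the order of their levels depended on the kind. In untreated and tunicamycin-treated GM-BMDM, Csf2rb led with 710 and 763 TPM, ahead of Csf1r with 608 and 603 TPM. Csf2ra followed with 235 and 291 TPM, Csf2rb2 with 172 and 149 TPM, and Csf3r was lowest with 7.03 and 7.05 TPM. In M-BMDM, Csf1r led with 3667 and 3595 TPM, as gene 23 and 21 in rank among 14010 and 14329 genes with a read. Csf2ra stood at 187 and 221 TPM, Csf3r at 171 and 204 TPM, Csf2rb at 128 and 145 TPM and Csf2rb2 at 59.3 and 62.0 TPM. With these gene lengths, the ranges of Csf2ra and Csf3r over both M-BMDM libraries overlapped, and those of the other neighbours in each order did not.

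Expressed as ratios per length, Csf1r RNA was 0.855 and 0.79 times that of Csf2rb in GM-BMDM and 28.7 and 24.9 times in M-BMDM. The common beta chain stood at 3.02 and 2.62 times the GM-CSF alpha chain in GM-BMDM and at 0.684 and 0.654 times in M-BMDM. The place of Csf2ra among the receptors rests on the gene length used. The tables give Csf2ra lengths of 1849 bases for BMDM and 2871 bases for LLC, and with the LLC lengths these ratios became 4.69 and 4.08 in GM-BMDM and 1.06 and 1.02 in M-BMDM. Csf2ra then stood at 124 and 147 TPM in M-BMDM, below Csf3r with 176 and 211 TPM and Csf2rb with 132 and 149 TPM. In untreated GM-BMDM it stood at 156 TPM, below Csf2rb2 with 177 TPM, and with tunicamycin at 192 TPM, above Csf2rb2 with 153 TPM. Csf1r lengths also differ, 4885 bases for BMDM and 5774 for LLC. With the LLC lengths Csf1r stood at 528 and 523 TPM in GM-BMDM, beside 730 and 783 TPM for Csf2rb. In M-BMDM it then stood at 3191 and 3136 TPM. The ratios of Csf1r thus depend on the length used, and its place in each kind did not. For Csf2rb both tables give 7277 bases, while the transcript that gave its coding sequence has 4900 bases. Levels at that shorter length were not computed, so the ratios of Csf2rb and its place in M-BMDM also rest on the length used.

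The comparison of both kinds asked which receptors and ligands distinguish GM-BMDM from M-BMDM. RNA of the common beta chain, the IL-3 beta chain, the GM-CSF alpha chain and M-CSF itself was higher in GM-BMDM, and RNA of the M-CSF and G-CSF receptors was higher in M-BMDM. Of the 9 members, 6 averaged 1 CPM or more over the 4 libraries and were tested, and all 5 receptors were among them. In an additive fit of kind and tunicamycin over the 4 libraries, 4 members were called higher and 2 lower in GM-BMDM at an adjusted p of 0.05. The same fit called 25.4% of 11049 genes higher and 25% lower, so a call on its own is common here. In bulk RNA, fewer cells of a type and less RNA per cell cannot be told apart.

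**Figure D2:**
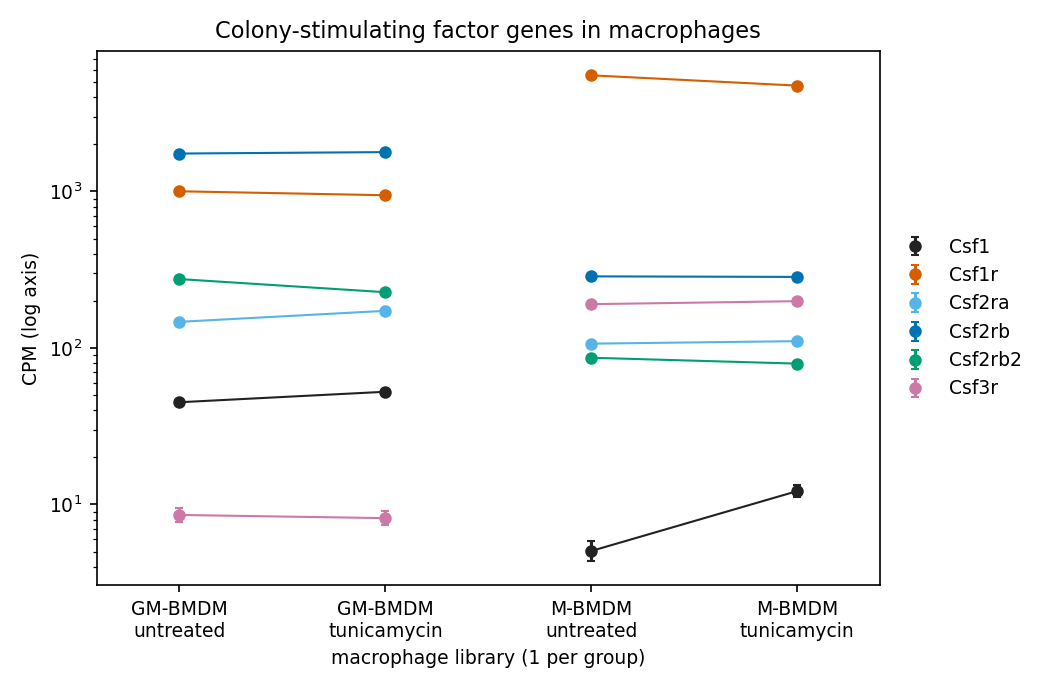
CPM on a log axis of the 6 members that passed the filter, in the 4 macrophage libraries, with exact 95% Poisson intervals as bars (mostly smaller than the points) and lines joining the libraries of a kind. Csf1r and Csf3r sit higher in M-BMDM, the other 4 sit higher in GM-BMDM, and Csf1 shows the steepest line with tunicamycin, in M-BMDM.

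Csf1r, the M-CSF receptor, had 1002 and 945 CPM in untreated and tunicamycin-treated GM-BMDM and 5517 and 4742 CPM in M-BMDM. Both M-BMDM libraries lay above both GM-BMDM libraries. The level was 5.5 times lower in GM-BMDM than in M-BMDM without tunicamycin (95% interval 5.45 to 5.56) and 5.02 times lower with it (4.96 to 5.07). These intervals, as all others here, cover counting error only. The fitted log2 fold change was -2.39 ± 0.15 (SE) (adjusted p = 2.4e-05). Here and below, adjusted p-values are those of edgeR's quasi-likelihood test after the Benjamini-Hochberg procedure over all genes tested.

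Csf3r, the G-CSF receptor (chromosome 4, 126024550 to 126044440, plus strand), had 8.57 and 8.18 CPM in GM-BMDM and 190 and 199 CPM in M-BMDM. It showed the widest gap between kinds of the 6 members, 22.2 times lower in untreated GM-BMDM (19.9 to 24.8) and 24.3 times lower with tunicamycin (21.9 to 27.2). The fitted log2 fold change was -4.54 ± 0.13 (edgeR adjusted p = 2.4e-06). Of 7 neutrophil markers tested, 6 were called higher in GM-BMDM and 1 lower (Mmp9, -0.91 ± 0.17), with the summed levels given above. Of these markers 3, Ngp, Ltf and Prtn3, averaged under 1 CPM in M-BMDM and so passed the filter only through GM-BMDM.

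Csf2rb, the common beta chain, had 1746 and 1783 CPM in GM-BMDM and 287 and 284 CPM in M-BMDM. That is 6.09-fold higher in untreated GM-BMDM (5.97 to 6.22) and 6.27-fold with tunicamycin (6.15 to 6.39), with a fitted log2 fold change of 2.63 ± 0.13 (edgeR adjusted p = 1.0e-05). Csf2rb2, the IL-3 beta chain, had 275 and 227 CPM in GM-BMDM and 86.5 and 79.4 CPM in M-BMDM. Its fold was smaller, 3.18 without tunicamycin (3.06 to 3.31) and 2.86 with it (2.75 to 2.98), and the fitted log2 fold change was 1.59 ± 0.12 (edgeR adjusted p = 5.3e-05). Per length, Csf2rb2 stood at 0.242 and 0.196 times Csf2rb in GM-BMDM and at 0.464 and 0.429 times in M-BMDM. These values carry the uncertain split of shared reads shown above and rest on the Csf2rb length used.

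Csf2ra, the GM-CSF alpha chain (chromosome 19, 61223957 to 61228429, minus strand), had 147 and 173 CPM in GM-BMDM and 107 and 111 CPM in M-BMDM. Both GM-BMDM libraries were higher, by 1.38-fold without tunicamycin (1.32 to 1.43) and 1.56-fold with it (1.5 to 1.62), the smallest difference of the 6 members. The fitted log2 fold change was 0.55 ± 0.12 (edgeR adjusted p = 6.9e-03). The call was lost without the tunicamycin-treated GM-BMDM library, where a fit without the tunicamycin term gave 0.44 (edgeR adjusted p = 0.15).

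**Figure D3:**
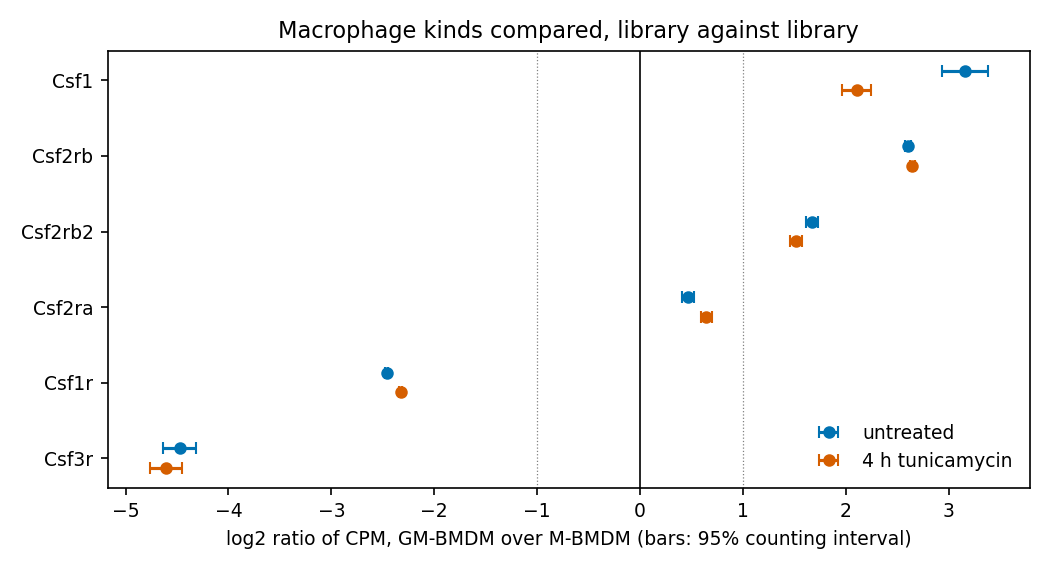
Log2 ratio of CPM in GM-BMDM over M-BMDM for the 6 members, without tunicamycin and after 4 h of it, with 95% counting intervals and dotted lines at a 2-fold difference. Points of a gene stay close to each other for the 5 receptors, while Csf1 moves from 8.92-fold untreated to 4.31-fold with tunicamycin.

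Csf1 was the ligand gene that macrophages themselves expressed, at 45.0 and 52.5 CPM in GM-BMDM and 5.04 and 12.2 CPM in M-BMDM. Untreated GM-BMDM had 8.92-fold more (7.67 to 10.4), and the fold was 4.31 with tunicamycin (3.91 to 4.75). The fitted log2 fold change was 2.60 ± 0.25 (edgeR adjusted p = 1.8e-04). Csf1 and its receptor thus differed between the kinds in opposite directions. Per length, with the BMDM gene lengths, M-BMDM held 1182 and 421 times more Csf1r than Csf1 RNA against 24.1 and 19.5 times in GM-BMDM. The other ligands were at or near 0 in macrophages. Csf3 had 0 reads in all 4 libraries, Csf2 had 1 read in tunicamycin-treated GM-BMDM and 0 in the rest, and Il34 had 2 reads in that library, 1 in tunicamycin-treated M-BMDM and 0 in the untreated ones. A count of 0 allows up to 0.0745 CPM in untreated GM-BMDM and 0.0805 CPM in untreated M-BMDM.

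Genes around the members were grouped in lists by role, and counts of list genes are read beside the shares of all genes given above. In the GM-CSF response list, 10 of 12 genes were higher in GM-BMDM and 0 lower, with a median fitted log2 fold change of 2.93 beside -0.04 over all 11049 genes. Of the 12 genes 3, Ccl17, Ccl22 and Cish, averaged under 1 CPM in M-BMDM and passed the filter only through GM-BMDM, so they had to differ. Itgax (the integrin CD11c) was higher by 6.34 ± 0.19, the STAT5-induced feedback inhibitor Socs2 by 5.97 ± 0.17 and the factor Irf4 by 4.00 ± 0.16. Ccl17, a chemokine, had 11522 and 5968 reads in GM-BMDM and 2 and 5 reads in M-BMDM. Ccl22, a chemokine of the same receptor, had 3051 and 2034 reads against 2 and 9. The 2 genes not called were Ccnd1 and Bcl2l1.

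In the M-CSF response list, 3 of 12 genes were called higher in GM-BMDM and 6 lower, with a median of -1.14. Egr1 of this list averaged under 1 CPM in GM-BMDM and passed the filter only through M-BMDM, so it had to differ. The median difference of the 12 genes, by log2(CPM + 1), was -0.32 between the untreated libraries and -1.28 between the tunicamycin-treated ones, so the size of this median depends on the treated pair. Over all genes these medians were -0.03 and -0.04. Gas6, a ligand of TAM receptors, was lower by a log2 fold change of -4.21 ± 0.16, and the factor Maf had -3.68 ± 0.14. Cd14 had -1.74 ± 0.12 and Ets2 had -1.33 ± 0.33. The factors Egr2 (3.58 ± 0.13) and Myc (2.78 ± 0.24) and the urokinase gene Plau (3.09 ± 0.18) were higher in GM-BMDM, so the list did not move one way.

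Receptor signal transduction was split evenly, with 7 of 20 genes higher in GM-BMDM, 7 lower and a median of -0.06. The kinases Src (3.71 ± 0.20) and Fgr (2.39 ± 0.14) were higher in GM-BMDM. Feedback and receptor turnover had 7 of 13 genes higher and 6 lower, with a median of 0.39. Cish, named above as passing the filter only through GM-BMDM, belongs to this list too. Socs1 (2.03 ± 0.31) and the adaptor Dok2 (1.48 ± 0.14) were higher as well as Socs2 and Cish, while Spred1 (-1.34 ± 0.12) and Adam17 (-1.24 ± 0.12), a sheddase that cleaves the M-CSF receptor, were lower.

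Among partners of the members, 3 of 7 genes passed the filter. Il3ra, the IL-3 alpha chain that pairs with the beta chains, had 13.7 and 17.1 CPM in GM-BMDM and 27.9 and 33.3 CPM in M-BMDM. It was lower in GM-BMDM, with -0.99 ± 0.13 (edgeR adjusted p = 7.05e-04), the reverse of both beta chains. Il5ra had 3 reads in untreated GM-BMDM and 0 in the other 3 BMDM libraries, and Il3 and Il5 had 0 reads in all 4. Sdc1, a syndecan that can bind IL-34, was higher in GM-BMDM by 3.31 ± 0.13. Tyrobp, an adaptor that relays M-CSF receptor signals, had 0.15 ± 0.13 and was not called (edgeR adjusted p = 0.35).

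Of 11 transcription factors known to act on the receptor genes, 10 were tested, 5 were higher in GM-BMDM and 3 lower, with a median of 0.59. By log2(CPM + 1), the median difference of these factors was 0.65 between the untreated libraries and 0.14 between the treated ones. The size of their median thus depends on the pair. Klf4 (2.31 ± 0.51) and Cebpe were higher, and Cebpd (-2.0 ± 0.16) and Irf8 (-0.90 ± 0.11) were lower. Cebpe and Gfi1 averaged under 1 CPM in M-BMDM and passed the filter only through GM-BMDM, so they had to differ. Spi1, which encodes PU.1, had 233 and 231 CPM in GM-BMDM and 245 and 268 CPM in M-BMDM and was not called. In the list of transcription and mRNA decay control of the ligand genes, 1 of 14 genes was higher (Cebpb, 0.85 ± 0.17) and 9 were lower, with a median of -0.75, among them Nfkbia (-1.79 ± 0.15) and Zfp36 (-1.13 ± 0.15), an mRNA decay factor. Egr1, under 1 CPM in GM-BMDM, belongs to this list too. The median difference of this list was -0.43 between the untreated libraries and -1.02 between the treated ones. By log2(CPM + 1), 1 of 14 genes was at least 2-fold higher and 1 lower between the untreated libraries, beside 12.4% and 7.02% of all genes. Between the treated ones 0 were higher and 8 lower, beside 12.6% and 7.82%. The lower levels of this list thus lean on the treated pair.

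**Figure D4:**
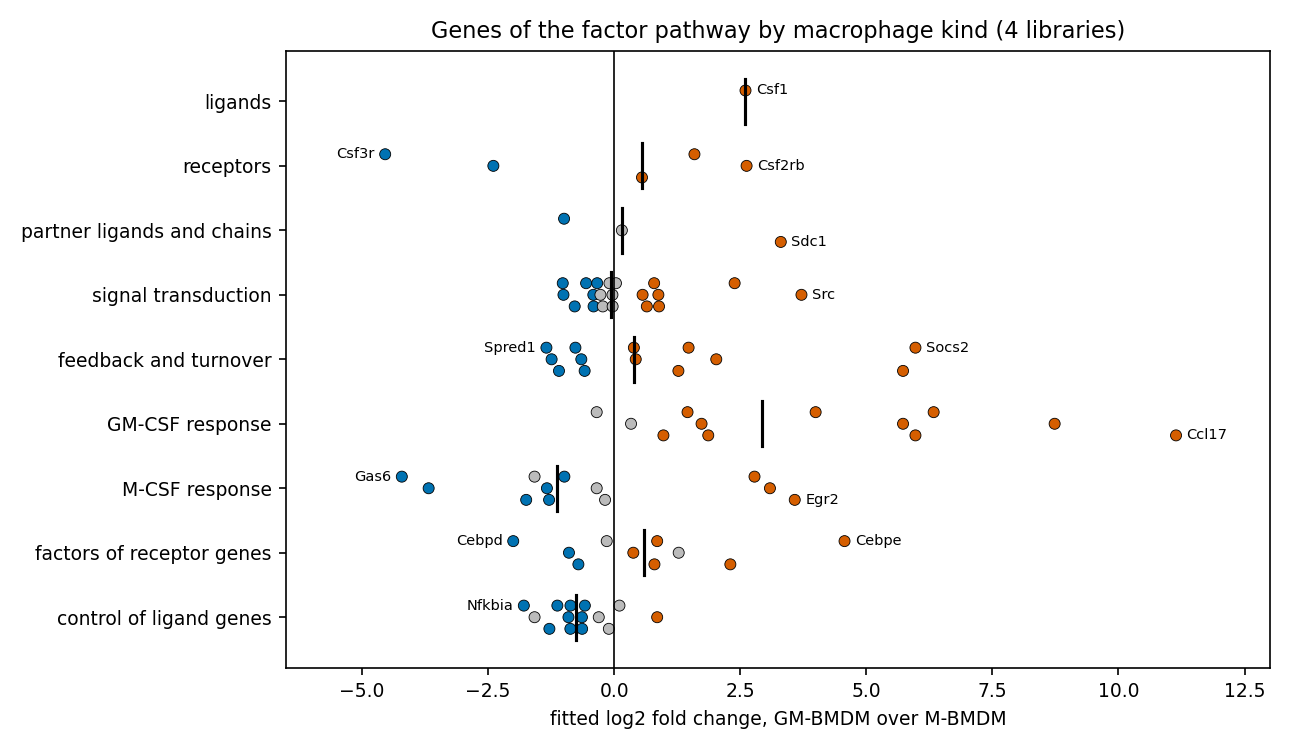
Fitted log2 fold change between GM-BMDM and M-BMDM of each tested gene in the 9 lists, orange where called higher, blue where called lower and grey where not called, with vertical bars at the median and the outermost genes named where they lie far from 0 (Ccl17 rests on 2 and 5 reads in M-BMDM). The GM-CSF response list lies mostly to the right with a median of 2.93, and the M-CSF response list has points on both sides with a median of -1.14.

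With 4 h of tunicamycin the receptor genes stood within 1.21-fold of their untreated level in both kinds of macrophage, and in M-BMDM Csf1 was the member that differed most. There, Csf1 stood at 5.04 CPM (188 reads) untreated and 12.2 CPM (514 reads) with tunicamycin, a 2.41-fold difference (2.04 to 2.87). In GM-BMDM it stood at 45.0 and 52.5 CPM, 1.17-fold (1.1 to 1.24), beside 1.18-fold for Csf2ra and a 1.21-fold lower level for Csf2rb2. By log2(CPM + 1), Csf1 was the only 1 of 6 members to differ by at least 2-fold in M-BMDM, where 1.18% of all genes were that much higher and 0.29% lower. In GM-BMDM 0 of 6 members did, beside 0.0634% of genes higher and 0.443% lower. The GM-BMDM response of Csf1 was 0.483 times that of M-BMDM (0.404 to 0.578), a ratio of single libraries with no test.

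The additive fit called 0 genes for tunicamycin (0%) with edgeR's quasi-likelihood test, against 1103 at an unadjusted p under 0.05 and 52 by DESeq2. For Csf1 it gave a log2 fold change of 0.69 ± 0.24 (edgeR adjusted p = 0.467). The receptors lay between -0.20 ± 0.12 (Csf2rb2) and 0.14 ± 0.12 (Csf2ra). Csf1r stood at 0.943 of its untreated level in GM-BMDM (0.93 to 0.957) and at 0.86 in M-BMDM (0.854 to 0.865). Csf2rb in M-BMDM was at 0.992 of its untreated level with TMM scaling and at 1.07 with total counts, so its direction depends on the scaling. That scaling shifts every gene by 0.11 on the log2 scale in this comparison.

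The ligand-control list holds 2 factors that folding stress is known to raise. Ddit3, which encodes the stress factor CHOP, stood at 13.5 CPM untreated and 44.3 CPM with tunicamycin in GM-BMDM, and at 17.0 and 194 CPM in M-BMDM. Atf4 stood at 216 and 300 CPM in GM-BMDM and at 160 and 614 CPM in M-BMDM. By the 2-fold rule 4 of 14 genes of that list were higher in M-BMDM (Ddit3, Atf4, Jun and Egr1) and 1 in GM-BMDM (Ddit3). In the GM-CSF response list 2 of 12 genes were at least 2-fold lower in GM-BMDM, Ccl17 with 286 and 141 CPM and the cyclin gene Ccnd1 with 17.2 and 6.43 CPM. Of 5 dendritic cell markers tested, 3 were at least 2-fold lower there as well, with a median difference of -1.11 and a summed level of 51.6 and 25.2 CPM. All 5 averaged under 1 CPM in M-BMDM and passed the filter only through GM-BMDM. The part of dendritic cells in the levels of Ccl17 and Ccnd1 was not tested.

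In LLC cells the question was whether macrophage medium changed the ligands. Csf1 had 202 CPM untreated, 231 in unstressed GM medium, 144 in unstressed M medium, 255 in stressed GM medium and 233 in stressed M medium, from 2238 to 4054 reads. The unstressed M library stood below the untreated one, and the other 3 stood above it. By log2(CPM + 1), 0 of the 2 members tested in LLC cells, Csf1 and Il34, differed by 2-fold in any of 8 comparisons of 2 libraries. Of all 11190 genes, 2.97%, 1.9%, 3.89% and 3.36% did so against untreated cells in unstressed GM, unstressed M, stressed GM and stressed M medium. Between stressed and unstressed medium the shares were 0.518% (GM) and 0.554% (M), and between GM and M medium 0.188% (unstressed) and 0.259% (stressed). Against untreated cells Csf1 was at 0.713 of the level in unstressed M medium (0.675 to 0.754), and 1.14-fold (1.09 to 1.2), 1.26-fold (1.2 to 1.32) and 1.149-fold (1.1 to 1.2) in unstressed GM, stressed GM and stressed M medium. These share the untreated library.

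**Figure D5:**
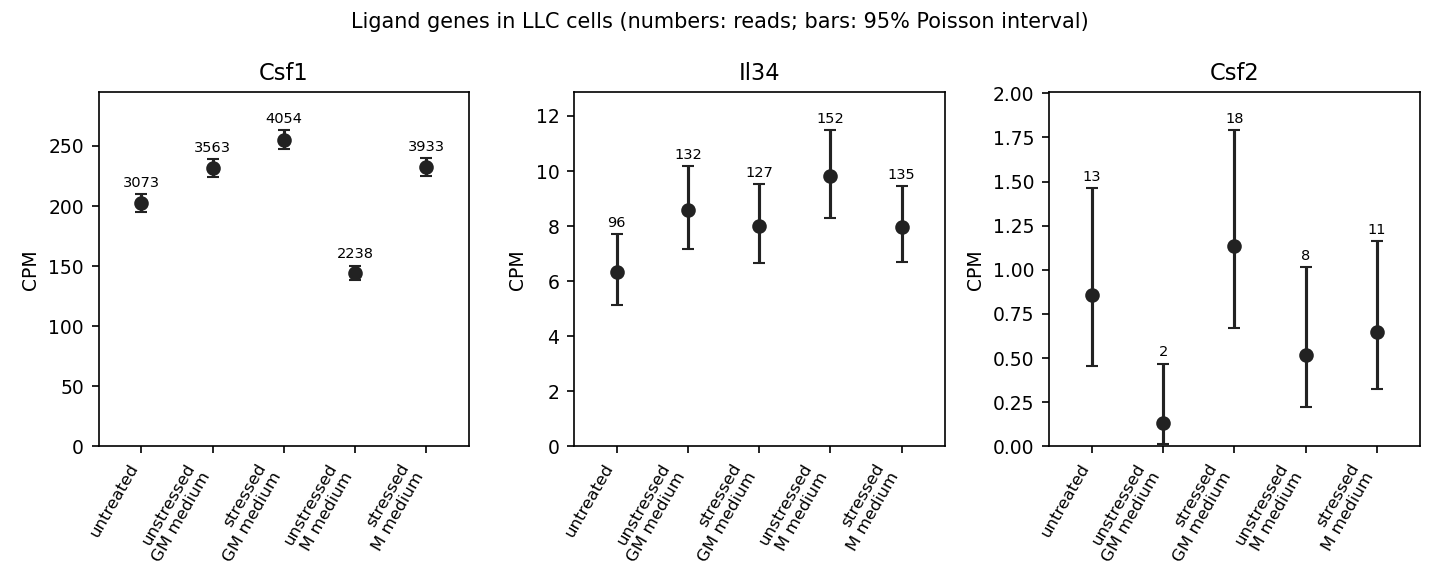
CPM of Csf1, Il34 and Csf2 in the 5 LLC libraries on linear axes from 0, with exact 95% Poisson intervals and the number of reads above each point. Csf1 is lowest in unstressed M medium at 144 CPM, Il34 is lowest in untreated cells at 6.32 CPM, and Csf2 rests on 2 to 18 reads.

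The additive LLC fit held medium against none, the kind of medium and its stress, with 1 residual degree of freedom. Csf1 was called higher in GM than in M medium, by 0.40 ± 0.06 on the log2 scale (edgeR adjusted p = 2.5e-09), beside 2.21% of all genes. It was also called higher in stressed than in unstressed medium, by 0.41 ± 0.06 (edgeR adjusted p = 1.4e-10), beside 12.5%. DESeq2, which called fewer LLC genes in each contrast, called neither at log2 fold changes of 0.41 and 0.42, with adjusted p = 0.999 and 0.462. Both contrasts use the low unstressed M library. Without that library, stressed GM medium stood at 1.1-fold of unstressed GM medium (1.054 to 1.154), and stressed GM medium at 1.1-fold of stressed M medium (1.05 to 1.147). With it, the folds were 1.61 (1.53 to 1.7) for stressed against unstressed M medium and 1.6 (1.52 to 1.69) for unstressed GM against unstressed M medium. The stressed-over-unstressed fold of Csf1 in M medium was 1.46 times that in GM medium (1.364 to 1.565), a ratio of single libraries with no test. An additive fit averages over such unequal folds. Its edgeR p-values for Csf1 rest on the trend over genes and not on the spread of Csf1 itself. Medium against none gave 0.07 ± 0.06 for Csf1 (edgeR adjusted p = 0.409). The fibroblast markers summed to 1827 and 1588 CPM in unstressed GM and M medium and to 1071 and 1054 CPM in the stressed ones, and their part in the Csf1 values was not tested.

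Il34 had 6.32 CPM untreated and 8.58, 9.81, 7.998 and 7.98 CPM in unstressed GM, unstressed M, stressed GM and stressed M medium, from 96 to 152 reads. All 4 libraries with medium stood above the untreated one. The fitted log2 fold change of medium against none was 0.44 ± 0.22 and was not called (edgeR adjusted p = 0.0818), where 24.9% of genes were called higher. Kind of medium (-0.10 ± 0.18) and stress (-0.20 ± 0.18) were not called either. Il34 (chromosome 8, 110741829 to 110805924, minus strand) overlaps Gm15894 and Gm15895 on the other strand, and Csf2 (chromosome 11, 54247271 to 54249667, minus strand) overlaps Gm12223. No counts of these antisense genes are given in the sources used here, and their reads cannot be told apart from those of Il34 and Csf2. Csf2 did not pass the filter. Its 18 reads in stressed against 2 in unstressed GM medium give a ratio of 8.72 with a counting interval of 2.09 to 77.5, and 11 against 8 reads in M medium give 1.26 (0.462 to 3.61).

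Of the lists around the members, few genes could be tested in LLC cells where the list belongs to blood cells. Sdc1 was the 1 partner gene that passed, at 419 CPM untreated and 518 to 619 CPM with medium, a fitted 0.42 ± 0.06 (edgeR adjusted p = 3.9e-10). Il3, Il5, Il3ra and Il5ra had 0 reads in the untreated library and in all 4 with medium. In the ligand-control list 4 of 14 genes were higher with medium and 6 lower, beside 24.9% and 21.9% of all genes. Ddit3 was higher by 1.01 ± 0.12 and Atf4 by 0.68 ± 0.06, and Cebpb (-1.10 ± 0.13), Zfp36l1 (-0.90 ± 0.08) and Jun (-0.83 ± 0.07) were lower. Stressed against unstressed medium gave 6 of 14 genes higher and 1 lower, beside 12.5% and 10.9% of all genes, with Fosl1 at 0.63 ± 0.17, Ddit3 at 0.46 ± 0.09 and Cebpb at -0.89 ± 0.13. Kind of medium gave 3 of 14 higher in GM medium, Cebpb (0.67 ± 0.13), Zc3h12a (0.56 ± 0.14) and Junb (0.41 ± 0.08), beside 2.21% of all genes.

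In signal transduction 3 of 19 tested genes were higher in LLC cells with medium and 5 lower, beside the same shares of all genes. Stat5a (-1.03 ± 0.19), Stat5b (-0.23 ± 0.08) and the adaptor Gab2 (-0.84 ± 0.14) were among the lower ones, and the kinase Fyn (0.37 ± 0.11) was among the higher. In the M-CSF response list 2 of 8 tested genes were higher with medium and 2 lower, with Plau at -1.46 ± 0.06, Ets2 at -0.71 ± 0.07, Myc at 0.39 ± 0.06 and Ccnd1 at 0.31 ± 0.07. Of the receptor-gene factors 0 of 7 were higher with medium and 3 lower, Irf8 (-1.45 ± 0.31), Cebpb and Gfi1. Feedback genes gave 0 of 10 higher and 2 lower, Dok1 and Cbl, at -0.24 ± 0.07 and -0.21 ± 0.07.

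Finally, genes whose profile over the libraries of a table was nearest to each member were listed, by the distance between log2(CPM + 1) profiles after removing each gene's mean, among 9420 BMDM and 9663 LLC genes whose mean reached 5 CPM. Over the 4 BMDM libraries the nearest to Csf1r were Slc11a1, Ankrd33b, Susd3, Ralgps1 and Adap2, at distances of 0.075 to 0.12. Nearest to Csf3r were Ifi213, Ifit3b, Ifit1, Irf7 and Ms4a4c, at 0.223 to 0.311, and nearest to Csf2rb were C1ra, H2bc9, Slc18a1, Prkca and Aurka, at 0.075 to 0.113. Csf2rb2 lay closest to Tmem64, Fasn, Rrm1, Il13ra1 and Dusp18, and Csf2ra to Comtd1, Aimp2, Ccdc126, Kif5a and Gpatch11. For Csf1 in BMDM the nearest were Hcar2, Prr5l, Fbxo32, Cd274 and H2ac4, at 0.205 to 0.354. Cd274, the gene of PD-L1, had a mean of 236 CPM against 28.7 CPM for Csf1. Over the 5 LLC libraries Csf1 lay closest to Fhl2, Fbxl15, B4galnt4, Fam185a and Rnf125, at 0.178 to 0.231, and Il34 to Bcl7c, Platr25, Iqcc, B3galt6 and Ift52, at 0.036 to 0.081.

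Set side by side, the ligand with the most RNA in LLC cells was Csf1, and its receptor was the most abundant of the 5 receptor RNAs in M-BMDM and followed Csf2rb in GM-BMDM. Il34, the other ligand of that receptor, was 5.46 to 11.9 times lower per length than Csf1 in LLC cells. Csf2, the ligand of the pair of Csf2ra and Csf2rb, had 2 to 18 reads in LLC cells, and both chains were higher in GM-BMDM. Csf3 had 0 or 1 read in LLC cells, and its receptor gene Csf3r was higher in M-BMDM. The values are RNA levels in separate cultures, and no protein or binding was measured in the files used here.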

How the data were processed

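RNA-seq was deposited as read counts per gene with gene length, 1 table for 5 LLC and 1 for 4 BMDM libraries. The deposited counts were whole numbers, and FPKM values stand beside them, per the file headers. The FPKM equalled values recomputed here from the deposited counts within 5.0e-07 (LLC) and 4.9e-06 (BMDM). The last LLC column carries a stray line-end character, which was removed from the deposited cells. The submitters' processing notes name cutadapt 1.15, TopHat2 2.1.0 and HISAT2. Build, counter and strand setting are not given in the sources used here. All members had GENCODE M21 (GRCm38) coordinates, as did 99.0% of 21817 shared gene IDs.

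CPM used TMM effective library sizes (edgeR 4.0.16) per table, with a filter of a mean of 1 CPM (11190 LLC, 11049 BMDM genes). Library pairs were compared by log2(CPM + 1), where 1 counts as 2-fold, and by CPM ratios with exact Clopper-Pearson 95% intervals, with no p. Additive models were fitted with edgeR (quasi-likelihood), adjusted by Benjamini-Hochberg at 0.05, with 1 residual degree of freedom. The LLC prior degrees of freedom were infinite, so its p-values rest on the trend over genes, at a coefficient of variation of 4.28% (BMDM 11.5%). With 1 library per group, a p measures only the spread left by an additive model. DESeq2 1.42.0, other scalings, pseudocounts and filters were alternatives. The members and lists were chosen with earlier results of these data known. All members are named, and up to 6 genes per list with the largest difference, with Il3, Il5, Il3ra and Il5ra. Spi1, Bcl2l1 and marker genes are named beyond that, chosen after their values were seen. Some list genes are not reported here by name.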

Additional observations from a re-analysis of the deposited data

Results flagged for a closer look

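Csf1 in LLC cells moved in opposite directions with both kinds of unstressed medium. Against untreated cells it stood at 1.14-fold in unstressed GM medium and at 0.713-fold in unstressed M medium. In stressed M medium it stood at 1.149-fold, again opposite to the 0.713-fold in unstressed M medium. Each value is a ratio of 2 libraries, all share the untreated library, and the differences between them were not tested.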

How the results depend on the processing

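Over 306 single-gene values under the alternatives, 264 counted as the same, 39 as moved and 3 lost their call, and 0 values past a threshold turned direction. A fitted value counted as the same with an unchanged direction and call, whatever the size of its change. It counted as moved where it was not called and turned direction. Csf1 by kind thus counted as the same at 2.005 and 3.269 beside 2.603. A library pair moved when past the half-width of its counting interval, and a ratio per length when past a fixed margin. Of the 264, 12 are ratios by deposited FPKM, which repeat the main value and could not differ. With the LLC gene lengths all 12 such ratios moved. Of 160 counts of members or calls, 157 stayed within 1.5 times. DESeq2 gave 0 members higher by kind of medium and 0 by stress of the medium in LLC cells, where edgeR called 1 each (Csf1). With log2(CPM + 5), 0 members were at least 2-fold higher in tunicamycin-treated M-BMDM in place of 1, since Csf1 then differed by 0.77. DESeq2 called 36 in place of 507 genes for the kind of medium, 482 in place of 2611 for its stress and 1994 in place of 5231 for medium against none. The causes were not tested. In fits without the tunicamycin term that left out each BMDM library in turn, the members called by kind stayed at 4 higher and 2 lower, except that Csf2ra was lost without the tunicamycin-treated GM-BMDM library. No paired analysis was possible because each group held 1 library and the labels carry no replicate numbers. LLC depth limits Csf2, Csf3 and the receptors, which had at most 18 reads.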
